A study of Homo sapiens with 6 samples.

Results

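The 10 genes described here are TPD52, its paralogs TPD52L1 and TPD52L2, the gene of its binding partner MAL2, and 6 genes that lie near TPD52 on the long arm of chromosome 8 (HEY1, MRPS28, ZBTB10, ZNF704, PAG1 and IMPA1). They were picked by name, family and position out of 34869 genes in the deposited table. RNA was sequenced from NCI-H295R, a steroid-producing line long established from a human adrenocortical carcinoma. The cells carried a lentivirus with either an shRNA (short hairpin RNA) against TPD52 (shTPD52, 3 libraries) or a non-targeting shRNA (shCtrl, 3 libraries), so both groups had been transduced. The sources used here do not give the sequence or number of the hairpins, and nothing in the labels says that the 3 libraries of a group came from separate cultures, so p-values measure the spread between libraries, which may be technical.

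TPD52 (tumor protein D52) is the founding member of a small family of coiled-coil proteins that bind themselves and one another and take part in vesicle traffic, secretion and lipid storage. It lies in a part of chromosome 8 that is often gained in carcinomas, and it is best known as a gene overexpressed in breast, prostate and ovarian tumors. Among its partners is MAL2, a membrane proteolipid that carries cargo to the apical surface of polarised epithelial cells. The study's title ties TPD52 to aldosterone synthesis and CAMKK2 signaling, and the comparison of shTPD52 with shCtrl asks what lowering TPD52 does. For these genes it also shows how far the fall in TPD52 was shared by its paralogs and by the genes beside it on the chromosome.

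TPD52 RNA fell to 0.493 times the control level, and none of the other 9 genes passed the test. The paralogs TPD52L1 and TPD52L2 stood far above TPD52 in both groups, and both differed little between the groups. In the neighbourhood, IMPA1 did not pass but was lower in every shTPD52 library than in any shCtrl library. The same held for 28.3% of all tested genes. MRPS28 was high in 1 shTPD52 library, and HEY1 and PAG1 were close to undetected. Among all genes tested, 18.3% passed, 5.63% as higher and 12.7% as lower in shTPD52. The test was limma on log2(FPKM + 0.5), with Benjamini-Hochberg adjustment over all 12782 genes that reached a mean of 1 FPKM. FPKM is reads scaled to gene length and library size, so levels of different genes are compared per length. A fold change is a difference on the log2(FPKM + 0.5) scale, which understates the change of low genes. Of the 10 genes, 6 reached the filter, and TPD52, MAL2, HEY1 and PAG1 were each added to the fit.

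The libraries held between 29544341 and 38396624 reads, worked back from the deposited values. Counts between 1 and 20 were odd in only 26.9% to 29.9% of cases, as they would be if each mate of a read pair were counted, so the reads given below may stand for fewer fragments. All 11 adrenocortical markers were above 0 in both groups, with summed levels of 458 to 480 FPKM in shCtrl and 512 to 529 FPKM in shTPD52, and 4 of the 10 tested rose. Markers of chromaffin, endothelial, immune and fibroblast cells summed to at most 1.26 FPKM per list in any library. Of the 12782 genes, 720 were called higher and 1621 lower. Over all tested genes the median log2 fold change was -0.11. With median-ratio scaling it was 0.00, and the calls were 1083 higher and 1038 lower. The median also ran with exon length, from 0.088 in the 2405 tested genes under 2 kb to -0.32 in the 1177 of 10 kb or more. Genes of the mitochondrial genome took 17.5% to 18.5% of reads in shCtrl libraries and 19.7% to 24.4% in shTPD52 libraries, and the part of this difference in the results was not tested. On the first principal component shTPD52 replicate 2 lay at 0.29, between the shCtrl libraries (-24.1 to -16.4) and shTPD52 replicates 1 and 3 (27.3 and 35.3).

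**Figure D1:**
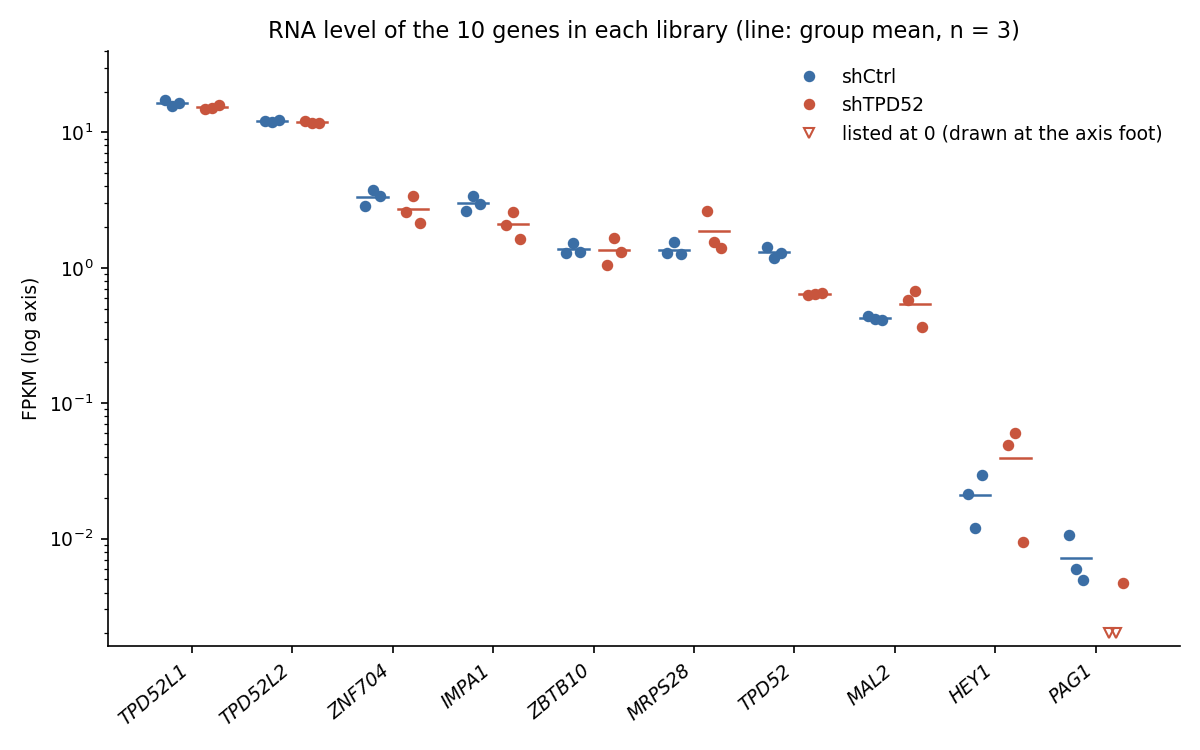
FPKM on a log axis for each of the 10 genes in each of the 6 libraries (points), with the group mean as a line; blue is shCtrl, red is shTPD52, and open triangles mark libraries listed at 0. TPD52L1 and TPD52L2 stand at the top, only TPD52 and IMPA1 among the detected genes have all red points below all blue ones, and HEY1 and PAG1 sit at the foot.

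TPD52 (ENSG00000076554, GRCh38 chromosome 8, 80034745 to 80231232, minus strand) is the target of the hairpin, so its level checks the labels. Its values were 1.42, 1.18 and 1.29 FPKM in shCtrl replicates 1, 2 and 3 and 0.630, 0.635 and 0.655 FPKM in shTPD52 replicates 1, 2 and 3. Every shTPD52 library was below every shCtrl library, as were 28.3% of all tested genes. The log2 fold change was -0.65 (SE 0.14, 95% interval -0.97 to -0.34, adjusted p = 0.0218 by limma). Tested genes of 5 to under 10 kb, the class to which the 8197 exon bases of TPD52 belong, had a median of -0.20. The call ended after a correction for length and GC content (log2 fold change -0.50, adjusted p = 0.0795 by limma), when TPD52 was added to a fit of genes of 5 FPKM or more (adjusted p = 0.0616 by limma) and with every gene kept (adjusted p = 0.067 by limma). Leaving out a single library ended it too, except where that library was shTPD52 replicate 2.

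The TPD52 values rest on 396, 292 and 386 reads in shCtrl replicates 1, 2 and 3 and on 151, 188 and 204 reads in shTPD52 replicates 1, 2 and 3. In shTPD52 the SD over the 3 libraries was 0.013 FPKM. Counting error alone would give an SD of 0.048 FPKM if every read were independent, and 0.068 FPKM if reads came in pairs. The 3 shTPD52 libraries thus lay closer together than their depth would lead one to predict, and their spread understates the uncertainty of each value. In shCtrl the SD of 0.12 FPKM exceeded the counting SD of 0.069 FPKM that independent reads would give. Reads in pairs would give a larger counting SD there too, and so a smaller excess. With 41.4% of 17509 protein-coding genes below it in shCtrl, TPD52 was a gene of modest level in these cells even before knockdown.

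TPD52L1 (ENSG00000111907, also called D53; GRCh38 chromosome 6, 125119049 to 125264407, plus strand) encodes a family member that binds TPD52 and acts in vesicle fusion. It stood at 17.2, 15.6 and 16.4 FPKM in shCtrl and at 14.8, 15.2 and 15.9 FPKM in shTPD52, in the order of the replicates, and the groups overlapped. Its change on the log2 scale was -0.097 (SE 0.079, 95% interval -0.28 to 0.086, adjusted p = 0.391 by limma), and its sign flips under median-ratio scaling (0.023) and once length and GC content were corrected for (0.11). TPD52L2 (ENSG00000101150, also called D54; GRCh38 chromosome 20, 63865228 to 63891545, plus strand) encodes an abundant family member found on small transport vesicles. Its values were 12.1, 11.9 and 12.3 FPKM in shCtrl and 12.2, 11.8 and 11.7 FPKM in shTPD52. The log2 fold change was -0.026 (SE 0.075, 95% interval -0.20 to 0.15, adjusted p = 0.819 by limma), with a sign that flips with median-ratio scaling, quantile normalization and the length and GC correction. These intervals leave room for a fall of 0.28 or a rise of 0.15 on the log2 scale, and the counts behind them are large, with at least 3326 reads of TPD52L1 and 1687 of TPD52L2 per library. TPD52L3, the testis member of the family, was not analysed here.

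The order of the family did not differ between libraries: TPD52L1 was highest, TPD52L2 next and TPD52 lowest in all 6. TPD52L1 was 12.7 ± 0.60 times TPD52 in shCtrl (SD, n = 3) and 23.9 ± 0.40 times in shTPD52 (n = 3). TPD52L2 was 9.39 ± 0.84 times TPD52 in shCtrl and 18.6 ± 0.71 times in shTPD52 (n = 3 each). TPD52 therefore supplied only 4.34% ± 0.27 of the summed FPKM of the 3 genes in shCtrl (n = 3) and 2.30% ± 0.017 in shTPD52 (n = 3). Such a share is free of library scaling, and all 3 shTPD52 values (2.28%, 2.30% and 2.31%) lay below all 3 shCtrl values (4.64%, 4.10% and 4.30%). A two-sided exact permutation test gave p = 0.1, which is the lowest value possible with 3 libraries against 3. The summed family level was 29.8 ± 1.01 FPKM in the shCtrl group and 27.8 ± 0.41 FPKM in the shTPD52 group (n = 3 each, exact permutation p = 0.1, two-sided). This sum, unlike the share, is not free of library scaling. TPD52L1 and TPD52L2, which make up most of it, had log2 fold changes of 0.023 and 0.093 under median-ratio scaling. The ratio of TPD52L1 to TPD52L2 was 1.35 ± 0.062 in shCtrl and 1.29 ± 0.071 in shTPD52 (n = 3 each, exact permutation p = 0.4, two-sided).

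**Figure D2:**
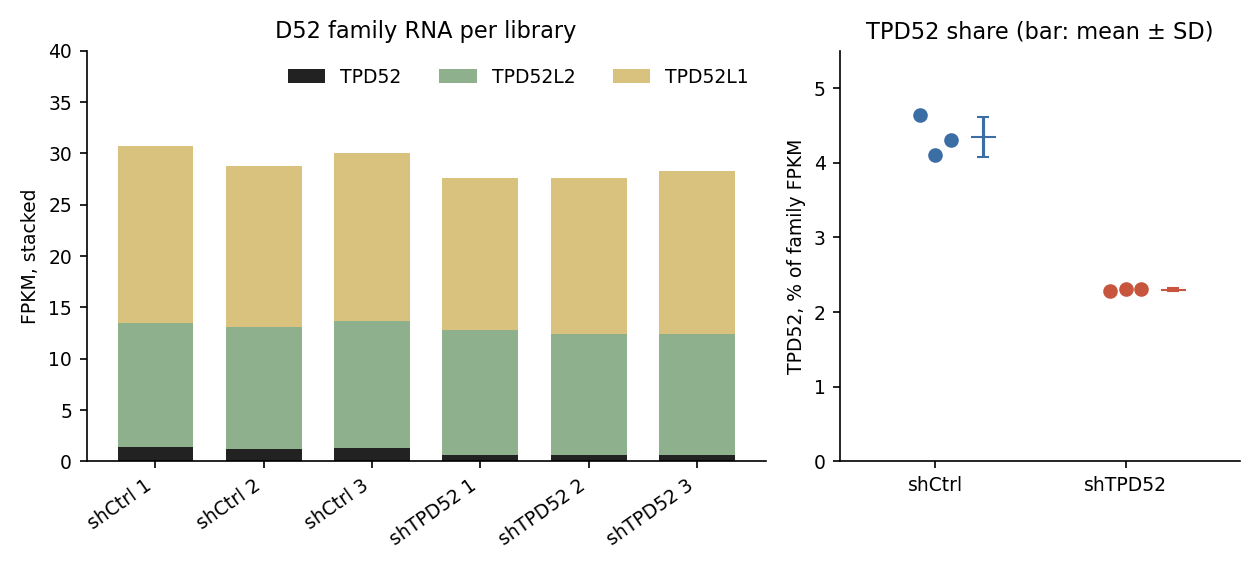
Left, FPKM of TPD52, TPD52L2 and TPD52L1 stacked for each library; right, TPD52 as a percentage of that sum (points: libraries; bar: mean ± SD, n = 3). TPD52 is the thin foot of every column, at 4.34% in shCtrl and 2.30% in shTPD52.

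The 3 paralogs can be told apart by reads of ordinary length. In the GENCODE transcripts the longest run of identical bases was 31 between TPD52 and TPD52L1, 37 between TPD52 and TPD52L2 and 32 between TPD52L1 and TPD52L2. Runs of this size are longer than the stretch an shRNA pairs with, and whether the hairpin used here falls in one cannot be read from the sources used here. In exons TPD52L1 also overlaps HDDC2 on the opposite strand over 191 bases (2.52% of its exon length), and the strand setting of the counting is not given in the sources used here.

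MAL2 (ENSG00000147676, GRCh38 chromosome 8, 119165034 to 119245673, plus strand) is on the same chromosome arm as TPD52 but 38.9 Mb away from it, so it is a partner and not a neighbour. It stood at 0.441, 0.418 and 0.410 FPKM in shCtrl and at 0.581, 0.670 and 0.364 FPKM in shTPD52, in the order of the replicates. Replicates 1 and 2 of shTPD52 were above all shCtrl libraries and replicate 3 was below them. MAL2 had a log2 fold change of 0.16 (SE 0.18, 95% interval -0.26 to 0.58, adjusted p = 0.544 by limma), on 44 to 84 reads per library. Of the markers of the polarised epithelium in which MAL2 works, EPCAM was at 2.62 ± 0.30 FPKM in shCtrl (n = 3). The other 5 (CDH1, ESRP1, GRHL2, KRT19 and RAB25) reached at most 0.257 FPKM in any library, and the epithelial regulators ESRP1 and GRHL2 were listed at 0 in 4 and 3 of the 6 libraries. The relatives of MAL2 were low as well: no gene of the MAL family that was measured (MAL2, MALL and PLLP) reached the filter.

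Of 13 genes whose products are reported partners of D52-family proteins, 9 were tested, 1 fell and 8 did not pass, none having risen, with a median log2 fold change of -0.13 against -0.11 for all genes. ANXA6, a calcium-dependent membrane-binding annexin, was at 84.5, 86.3 and 92.4 FPKM in shCtrl and at 62.7, 76.2 and 68.1 FPKM in shTPD52, in the order of the replicates. The groups did not overlap, as in the 28.3% of tested genes that were separate as lower. Among all tested genes 12.7% passed as lower. ANXA6, the list gene that did, fell by 0.35 on the log2 scale, with an SE of 0.091 (adjusted p = 0.0377 by limma). That call ended under median-ratio scaling (adjusted p = 0.111 by limma) and once length and GC content were corrected for (-0.16, adjusted p = 0.177 by limma), with no filter, and on leaving out a single library unless it was shTPD52 replicate 2. MAP3K5, the stress kinase ASK1, had a log2 fold change of -0.39 (adjusted p = 0.091 by limma) and VAMP2, a vesicle SNARE, of 0.20 (adjusted p = 0.136 by limma).

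MRPS28 (ENSG00000147586, GRCh38 chromosome 8, 79918717 to 80030289, minus strand) encodes a protein of the small subunit of the mitochondrial ribosome. It lies directly downstream of TPD52 on the same strand, with its start 0.201 Mb from that of TPD52. Its level was 1.28, 1.55 and 1.25 FPKM in shCtrl and 2.65, 1.54 and 1.39 FPKM in shTPD52, in the order of the replicates. Replicate 1 of shTPD52 stood apart, and the FPKM values of the other 5 libraries overlapped between the groups. The reads behind them were 80, 86 and 84 in shCtrl and 142, 102 and 97 in shTPD52. Its change on the log2 scale was 0.31 (SE 0.20, 95% interval -0.17 to 0.78, adjusted p = 0.295 by limma), and it was 0.080 without shTPD52 replicate 1.

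The level of MRPS28 itself is uncertain. GENCODE release 29 annotates a gene that runs through both loci on the same strand (AC036214.3, ENSG00000276418), which holds 650 of the 1817 exon bases of MRPS28 (35.8%) and 877 of those of TPD52 (10.7%). It was not analysed here, and how the counting treated reads that fall in 2 genes is not given in the sources used here. Among 29 genes of the small mitochondrial subunit, MRPS28 was among the lowest in shCtrl at 1.36 ± 0.16 FPKM (n = 3), above MRPS24 and overlapping MRPS18C. Of these genes, 3 share at least 20% of their exon bases with another gene of the same strand, namely MRPS24, MRPS28 and MRPS17, and they stood at 0.377, 1.36 and 2.74 FPKM in shCtrl. The other 26 had a median of 16.1 FPKM and a lowest value of 1.51 FPKM, that of MRPS18C, which shares none. The part of shared exons in these levels was not tested. Of 28 subunit genes tested, 2 rose, none fell and 26 did not pass, where 5.63% of all genes passed as higher, and their median change in log2 was 0.18 (all genes: -0.11). The number that rose was 6 with median-ratio scaling, 9 with quantile normalization and 11 without shTPD52 replicate 2, and none fell in these. Over all genes, 1083 of 12782, 1152 of 12782 and 1611 of 12765 rose in these 3 settings. Only 1 subunit gene rose with no filter, without any 1 shCtrl library, and without shTPD52 replicate 1 or 3. With length and GC content corrected for, 4 rose and the median was 0.19, against 0.0059 for all genes. MRPS35 rose from 24.8 ± 1.25 to 39.8 ± 1.12 FPKM (n = 3 each), a difference in log2 of 0.67 (adjusted p = 0.00551 by limma), a call that held in all 15 alternatives. MRPS15 rose by 0.38 (adjusted p = 0.0482 by limma), a call that held in 8 of 15, and MRPS12 had a log2 fold change of 0.37 (adjusted p = 0.0541 by limma).

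**Figure D3:**
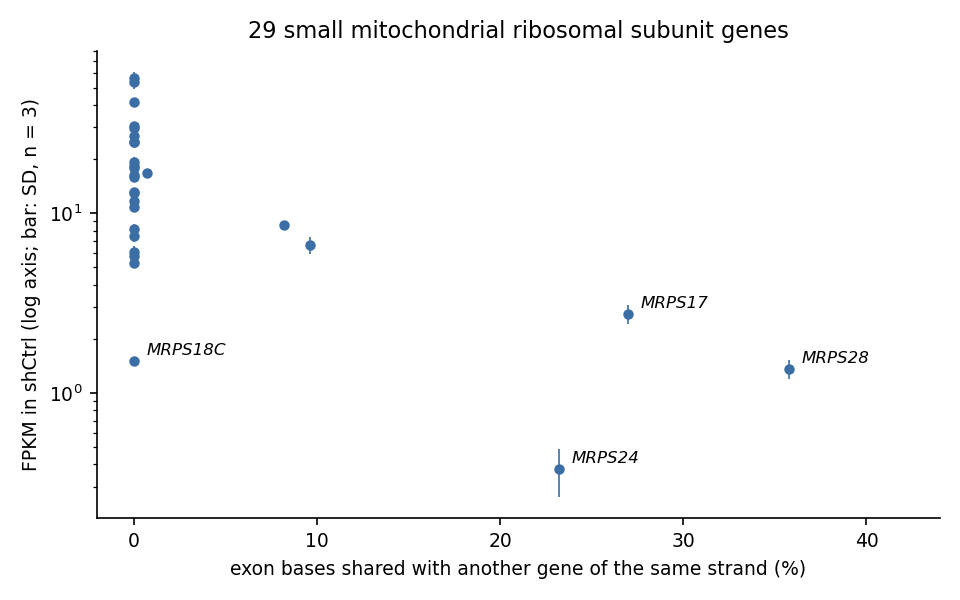
Mean FPKM in shCtrl on a log axis (bar: SD, n = 3) against the percentage of exon bases shared with another gene of the same strand, for 29 genes of the small mitochondrial ribosomal subunit. MRPS24, MRPS28 and MRPS17, the only ones with 20% or more, lie between 0.377 and 2.74 FPKM, and MRPS18C is as low with no shared bases.

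ZBTB10 (ENSG00000205189, GRCh38 chromosome 8, 80485619 to 80526265, plus strand) encodes a zinc finger repressor known for opposing the Sp transcription factors. Its level was 1.29, 1.52 and 1.32 FPKM in shCtrl and 1.05, 1.67 and 1.31 FPKM in shTPD52, in the order of the replicates. Both the lowest and the highest library belonged to shTPD52. The log2 fold change was -0.037 (SE 0.16, 95% interval -0.40 to 0.33, adjusted p = 0.881 by limma), and its sign turned in 5 of 15 alternatives. An antisense gene, AC009812.1, covers 594 of its exon bases (5.81%). None of 5 tested SP genes passed, with a median log2 fold change of -0.24 against -0.11 for all genes. That median was -0.13 with median-ratio scaling, -0.10 with quantile normalization and -0.12 with length and GC content corrected for. Those of all genes were 0.00054, -0.0069 and 0.0059 there. Without shTPD52 replicate 2, 3 SP genes passed as lower, where 4211 of 12765 tested genes did. SP1 had values of 16.0, 18.6 and 17.5 FPKM in shCtrl and 13.5, 15.9 and 11.6 FPKM in shTPD52. Its groups did not overlap, as in the 28.3% of tested genes that were separate as lower. The log2 fold change of SP1 was -0.34 (adjusted p = 0.0859 by limma). SP4 had -0.51 (adjusted p = 0.129 by limma) and SP2 -0.23 (adjusted p = 0.206 by limma). SP4 reached the filter only through shCtrl, at a mean of 1.52 FPKM against 0.953 FPKM in shTPD52.

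ZNF704 (ENSG00000164684, GRCh38 chromosome 8, 80628451 to 80874781, minus strand) encodes a zinc finger protein. It stood at 2.85, 3.76 and 3.39 FPKM in shCtrl and 2.56, 3.41 and 2.14 FPKM in shTPD52. Replicate 2 was the highest library of both groups, and the groups overlapped. Its change on the log2 scale was -0.27 (SE 0.17, 95% interval -0.66 to 0.11, adjusted p = 0.259 by limma). ZNF704 has the longest exons of the 10 genes, 15008 bases, and tested genes of 10 kb or more had a median of -0.32. Corrected for length and GC content, its log2 fold change was 0.041 (adjusted p = 0.74 by limma). Without shTPD52 replicate 2, where 45.6% of all tested genes passed, ZNF704 passed as lower (-0.43, adjusted p = 0.0374 by limma).

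IMPA1 (ENSG00000133731, GRCh38 chromosome 8, 81657961 to 81686693, minus strand) encodes inositol monophosphatase, the lithium-sensitive enzyme that frees inositol for the phosphoinositide cycle. Its level was 2.64, 3.36 and 2.95 FPKM in shCtrl and 2.08, 2.58 and 1.64 FPKM in shTPD52, in the order of the replicates. The groups did not overlap, as in the 28.3% of tested genes that were separate as lower. For IMPA1 the lowest shCtrl and the highest shTPD52 library differed by little. The log2 fold change was -0.43 (SE 0.16, 95% interval -0.80 to -0.066), with an unadjusted p of 0.0263 and an adjusted p of 0.0882 by limma. It was negative in all 15 alternatives, from -0.56 to -0.30. IMPA1 passed in 2 of them, with length and GC content corrected for (-0.42, adjusted p = 0.0278 by limma, with 19.7% of all genes passing) and without shTPD52 replicate 2 (-0.56, adjusted p = 0.0153 by limma). Its pseudogene IMPA1P1 shares a run of 56 identical bases with it, so a few reads may be exchanged.

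Of 10 tested genes of inositol phosphate recycling, 1 fell and 9 did not pass, none having risen, with a median log2 fold change of -0.10 against -0.11 for all genes. That median was 0.0083 with median-ratio scaling, 0.028 with quantile normalization and 0.086 with length and GC content corrected for. Among all tested genes 12.7% passed as lower, so a list of 10 with 1 lower does not stand out. The list gene that fell was ISYNA1, the synthase that makes inositol phosphate from glucose phosphate. It was at 1.79, 1.69 and 1.88 FPKM in shCtrl and at 1.05, 1.01 and 1.18 FPKM in shTPD52, with no overlap, and fell by 0.53 on the log2 scale, with an SE of 0.12 (adjusted p = 0.0277 by limma). That call held in 6 of 14 alternatives and ended with median-ratio scaling (adjusted p = 0.0509 by limma). SLC5A3, which carries inositol into the cell, was at 3.95, 5.47 and 4.82 FPKM in shCtrl and at 2.68, 4.20 and 2.09 FPKM in shTPD52, and had a log2 fold change of -0.62 (adjusted p = 0.0796 by limma). IMPA2, the second monophosphatase, lies outside the naming rule and is given as the paralog of IMPA1. Its values were 0.909, 0.890 and 0.965 FPKM in shCtrl and 1.09, 1.07 and 1.19 FPKM in shTPD52. It was higher in every shTPD52 library, as were 13.8% of tested genes, and did not pass (log2 fold change 0.18, adjusted p = 0.324 by limma). IMPA2 reached the filter only through shTPD52, at a mean of 1.12 FPKM against 0.922 FPKM in shCtrl, so its separation is a description only.

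HEY1 (ENSG00000164683, GRCh38 chromosome 8, 79764010 to 79767863, minus strand) encodes a Notch-driven repressor. It had 2, 1 and 3 reads in shCtrl replicates 1, 2 and 3 and 4, 6 and 1 reads in shTPD52 replicates 1, 2 and 3. A floor of 3 reads corresponds to 0.028 to 0.037 FPKM for this gene, and only 2 libraries exceeded it, both of them shTPD52. PAG1 (ENSG00000076641, GRCh38 chromosome 8, 80967810 to 81112068, minus strand) encodes a raft adaptor that recruits the kinase CSK. It had 4, 2 and 2 reads in shCtrl and 0, 0 and 2 reads in shTPD52. No fold change is given for HEY1 or PAG1, since both groups were at or near the floor, and neither passed when added to the fit (adjusted p = 0.881 by limma and 0.964).

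The family of HEY1, and the CSK and Src-family signalling genes listed with PAG1, were nevertheless represented. Of 4 tested HES and HEY factors, HES6 rose and HES7, HEY2 and HES1 did not pass, where 5.63% of all genes passed as higher. HES6, a member that opposes HES1, was at 4.91, 4.40 and 4.40 FPKM in shCtrl and at 6.96, 6.27 and 7.50 FPKM in shTPD52, a log2 fold change of 0.55 (SE 0.10, adjusted p = 0.0168 by limma) that passed in 10 of 15 alternatives. HEY2, the paralog of HEY1, was at 4.57 FPKM in the shCtrl group and 3.96 FPKM in the shTPD52 group (log2 fold change -0.19, adjusted p = 0.341 by limma), and HES7 had -0.19 (adjusted p = 0.259 by limma). Of 8 tested genes of CSK and Src-family signalling, 3 fell and 5 did not pass, none having risen, with a median log2 fold change of -0.17, where 12.7% of all genes passed as lower. The split was 1 higher and 2 lower with median-ratio scaling, and 2 higher and 1 lower with length and GC content corrected for. CSK, which switches Src-family kinases off, went from 23.1 ± 0.75 to 17.9 ± 0.63 FPKM (n = 3 each), a difference in log2 of -0.36 (adjusted p = 0.0212 by limma). The Src-family kinase gene FYN fell from 2.21 ± 0.062 to 1.44 ± 0.069 FPKM and the ubiquitin ligase gene CBL from 4.35 ± 0.48 to 2.23 ± 0.91 FPKM (n = 3 each, adjusted p = 0.0267 by limma and 0.0339). The call of CSK ended with median-ratio scaling (adjusted p = 0.0869 by limma), and those of CSK and FYN ended with the correction for length and GC content (-0.17 and -0.26, adjusted p = 0.0644 by limma and 0.095). All 3 calls ended without any 1 shCtrl library and without shTPD52 replicate 1 or 3.

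**Figure D4:**
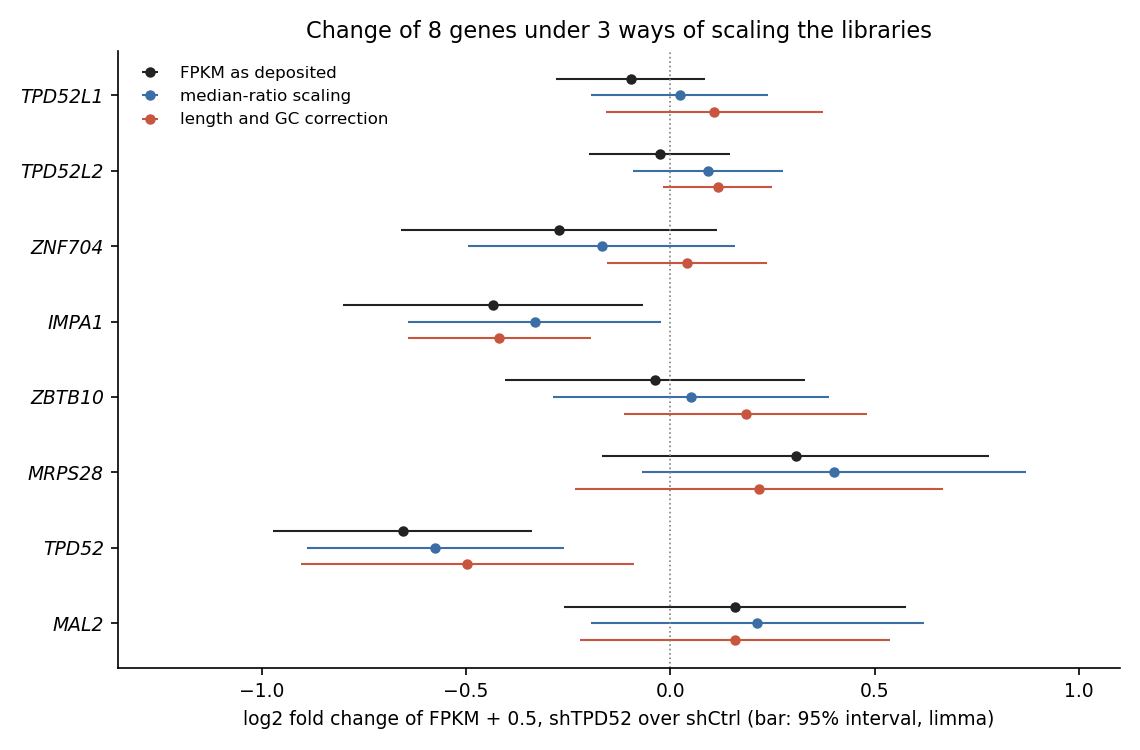
Log2 fold change of FPKM + 0.5, shTPD52 over shCtrl, with 95% limma intervals for the 8 genes above the floor, on values as deposited (black), under median-ratio scaling (blue) and once length and GC content were corrected for (red). TPD52 lies at -0.65, -0.57 and -0.50 and IMPA1 is negative throughout, while TPD52L1, TPD52L2, ZBTB10 and ZNF704 change sign.

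By position, 45 genes with a row in the table start within 3 Mb of TPD52, TPD52 itself left out. Of these 9 were tested and 0 passed by limma, where 18.3% of all tested genes did. IMPA1 and CHMP4C were the 2 with an unadjusted p under 0.05. One gene passed with no filter (FABP5), with median-ratio scaling or quantile normalization (CHMP4C) and after the length and GC correction (IMPA1), and without shTPD52 replicate 2 ZNF704 and IMPA1 did. The 9 tested genes had a median log2 fold change of -0.037 against -0.11 for all genes. Within 10 Mb, 37 genes were tested, 3 rose, 2 fell and 13.5% passed. On the whole of chromosome 8, 392 were tested, 16.3% passed and the median was -0.090. In the wider window 6 were higher and 1 lower with median-ratio scaling, and 5 higher and 3 lower with length and GC content corrected for. None passed when shTPD52 replicate 1 or any 1 of the shCtrl libraries was left out. Without shTPD52 replicate 2, 15 of 36 passed, where 45.6% of all genes did. The nearest gene that passed was the noncoding LINC01419, 3.17 Mb away, with a log2 fold change of 0.82 (adjusted p = 0.025 by limma). It reached the filter only through shTPD52, at a mean of 1.49 FPKM against 0.612 FPKM in shCtrl, as ZFHX4 did only through shCtrl.

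**Figure D5:**
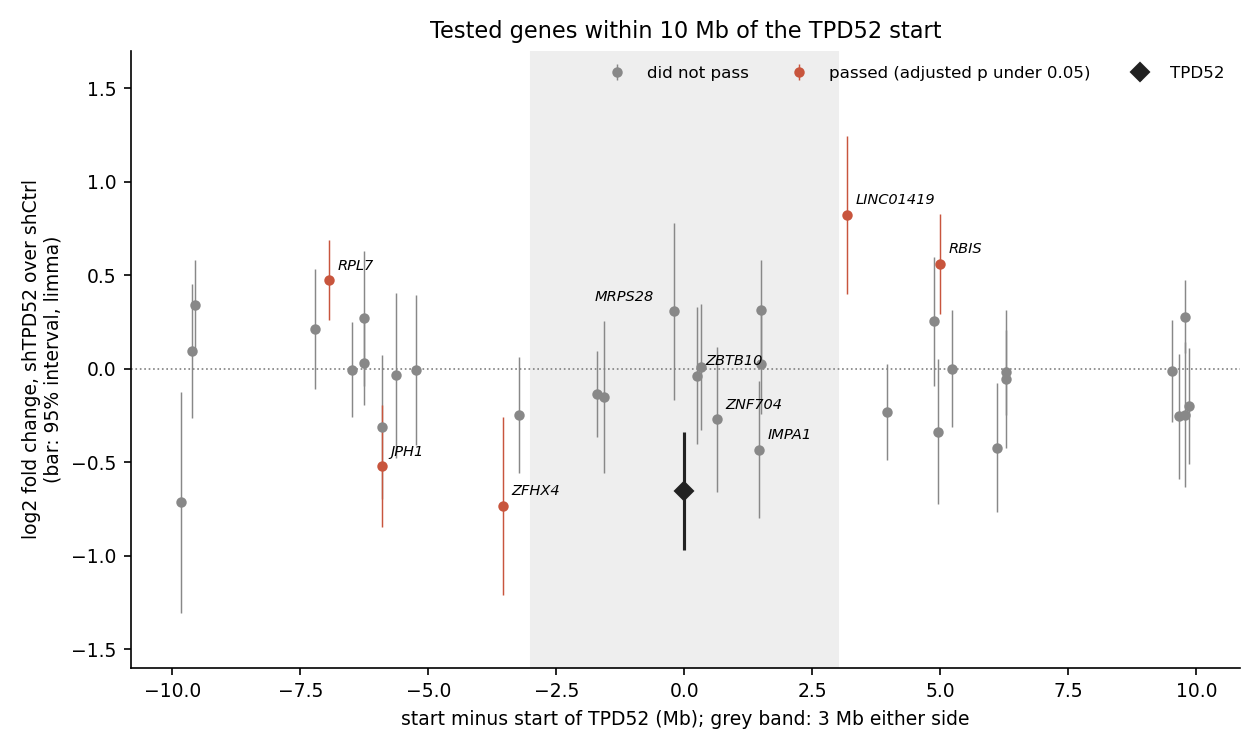
Log2 fold change, shTPD52 over shCtrl, with 95% limma intervals, against the distance of each gene's start from that of TPD52 in Mb; red points passed, the black diamond is TPD52 and the grey band is 3 Mb either side. No tested gene in the band passed, and the 5 red points beyond it lie on both sides of 0.

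From a list of 17 other genes of the region, 14 had a row and 7 were tested. Of these 1 fell and 6 did not pass, none having risen, where 12.7% of all genes passed as lower. ZFHX4, a large homeobox gene, was at 1.55, 2.03 and 2.08 FPKM in shCtrl and at 0.775, 1.41 and 0.697 FPKM in shTPD52, in the order of the replicates. It fell by 0.73 on the log2 scale, with an SE of 0.21 (adjusted p = 0.0448 by limma). Its call held in 6 of 14 alternatives and ended under median-ratio scaling (adjusted p = 0.0518 by limma) and once length and GC content were corrected for (-0.38, adjusted p = 0.0662 by limma). CHMP4C, an ESCRT-III subunit that acts in membrane scission, was at 6.25, 5.69 and 5.08 FPKM in shCtrl and at 8.04, 6.99 and 6.53 FPKM in shTPD52. Here the groups did not overlap, as in the 13.8% of tested genes that were separate as higher. The log2 fold change of CHMP4C was 0.32 (adjusted p = 0.0864 by limma). It passed with median-ratio scaling (0.43, adjusted p = 0.0406 by limma) and with quantile normalization (0.46, adjusted p = 0.0336 by limma). RALYL, an RNA-binding protein gene, had -0.23 (adjusted p = 0.16 by limma).

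Below the filter, 3 listed genes of the region had separate groups and were named after their values were seen, FABP5 and SLC10A5 as higher in shTPD52 and IL7 as lower. FABP5, a fatty acid carrier, had 7, 3 and 6 reads in shCtrl and 21, 23 and 29 reads in shTPD52, in the order of the replicates, or 0.107, 0.052 and 0.085 FPKM against 0.373, 0.331 and 0.397 FPKM. Without a filter its log2 fold change was 0.58 (adjusted p = 0.0487 by limma), where 531 of 34869 genes passed, 177 of them as higher. FABP5 has processed copies elsewhere in the genome, so the source of so few reads is uncertain. SLC10A5, a member of the bile acid transporter family, had 24, 22 and 20 reads in shCtrl and 48, 50 and 84 reads in shTPD52. IL7, a lymphocyte growth factor, had 16, 7 and 15 reads in shCtrl and 4, 6 and 8 reads in shTPD52, or 0.138, 0.067 and 0.120 FPKM against 0.040, 0.048 and 0.061 FPKM. For IL7 the groups were separate in FPKM but overlapped in reads. Among the tested genes, which do not include these 3, the groups were separate for 13.8% as higher, for 28.3% as lower and for 42% in either direction.

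The pattern of TPD52 over the 6 libraries was shared by many genes. Of 6045 protein-coding genes whose mean reached 5 FPKM, 675 (11.2%) had a Pearson r of at least 0.9 with TPD52 on the log2(FPKM + 0.5) scale. This is a description over libraries that differ by group. The 5 most alike were PFKL, SUMF2, RETREG2, PISD and TUBGCP2, with r between 0.994 and 0.995. PFKL, the liver-type phosphofructokinase of glycolysis, was at 46.8 ± 3.35 FPKM in the shCtrl group and 31.3 ± 1.12 FPKM in the shTPD52 group (n = 3 each).

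In shCtrl the levels of the 10 genes ran from TPD52L1 over TPD52L2, ZNF704, IMPA1, ZBTB10, MRPS28, TPD52, MAL2 and HEY1 down to PAG1. The libraries of ZNF704 and IMPA1 overlapped, as did those of ZBTB10 and MRPS28 and of MRPS28 and TPD52, so these neighbours in the order cannot be ranked. Nor can HEY1 and PAG1, which had 1 to 3 and 2 to 4 reads per shCtrl library and whose order rests on scaling to length. In shTPD52 the libraries of TPD52 lay below all those of MRPS28 and overlapped those of MAL2.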

How the data were processed

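RNA from 6 libraries was measured by paired-end sequencing, and the deposited table holds FPKM computed by the authors. Per the submitters' processing notes, the tools included featureCounts 2.0.3 and HISAT2 2.2.1, with the build GRCh38 (hg38). No source used here gives the annotation release or the strand setting. Coordinates, exon lengths and overlaps are those of GENCODE release 29 on GRCh38, which held 96.6% of the genes. Reads per gene were worked back from FPKM at the GENCODE length, or at the nearest length that gave whole reads within 0.02, for 98.4% of these genes. This search brings the agreement about and does not check it. At the GENCODE length itself 57.1% of these genes gave whole reads. The reads of TPD52, MAL2, HEY1 and IMPA1 rest on searched lengths (8111, 3438, 2752 and 4405 bases). The correction for length used the GENCODE length, which is 3720 bases for IMPA1. A floor of 3 reads is 0.039 to 0.051 FPKM for a gene of 2 kb and covers counting error only.

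Groups were taken from the sample titles. The test was limma 3.58.1 in R 4.3.3 (intensity trend, two-sided, threshold 0.05) on log2(FPKM + 0.5), with no further scaling, and was tried on simulated data. The simulated counts had as many rises as falls, no trend with exon length and no outlying library. These data differ in all of this, so that run does not check the test under such shifts. The alternatives changed the pseudocount (0.1 or 1), the filter (none or 5 FPKM) and the scaling (median-ratio or quantile), or used a loess correction for length and GC content (span 0.3), limma-voom on recovered reads, the replicate number as a block, and leaving out each library. Every one of the 10 genes is named. From each pathway, family or region list up to 3 tested genes with the smallest p, and any 8q21 gene that passed, are named. Lists of cell type markers are given by counts and summed levels, except the polarised epithelial list, whose genes are named. The genes and lists were chosen with earlier results of these data known.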

Additional observations from a re-analysis of the deposited data

How the results depend on the processing

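TPD52 was lower in shTPD52 under all 15 alternatives, with log2 fold changes from -1.01 with limma-voom on recovered reads to -0.48 with a pseudocount of 1 and limma adjusted p from 0.0044 to 0.098, and it passed in 7 of them. It did not pass without a filter or under a filter of 5 FPKM (-0.65 in both) or after the length and GC correction (-0.50). Leaving out each library gave -0.70 to -0.60. No other of the 10 genes passed in the test as reported. After the length and GC correction 1 passed (IMPA1), and leaving out each library gave 0 to 2, the 2 being ZNF704 and IMPA1 without shTPD52 replicate 2. Of all genes, 2341 passed, 531 without a filter, and 93 to 5822 when each library was left out. Signs turned with median-ratio scaling for TPD52L1 (0.023), TPD52L2 (0.093) and ZBTB10 (0.052), with quantile normalization for TPD52L2 (0.079) and ZBTB10 (0.080), and after the length and GC correction for TPD52L1 (0.11), TPD52L2 (0.12), ZBTB10 (0.18) and ZNF704 (0.041). ZBTB10 also turned without shCtrl replicate 2 (0.018) and without shTPD52 replicate 1 (0.079), within a range of -0.16 to 0.079 over single libraries left out. None of these genes passed in either direction there, and the cause was not tested. With the replicate block, TPD52 kept -0.65 (adjusted p = 0.0301 by limma) and 3064 genes passed. Deviations of same-numbered libraries correlated at 0.045, 0.25 and 0.022 for replicates 1, 2 and 3. Not every library correlated best with its own number. With 3 libraries per group, these values cannot decide whether the numbers pair the libraries. Depth limits HEY1 and PAG1, for which at most 6 reads per library were recovered, and MAL2 and MRPS28, with at most 142.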
